A study of Homo sapiens with 3 samples.

Results

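This account covers 9 genes grouped as double-stranded RNA binding and sensing proteins, taken by symbol from a table of 12040 genes. The group includes MAVS, which signals for such sensors. All 9 were found: ADAR, ADARB1, EIF2AK2, DHX9, ILF2, STAU1, STAU2, STRBP and MAVS. The 3 samples were HEK293 cells, an established human embryonic kidney line, carried as the derivative HEK293 T-Rex FLAG:DICER1 FLP-IN and transfected for RNAi. One was knocked down for DICER1, one for DROSHA and one was mock-transfected, each titled 2.5d, and each group has 1 library of poly(A) RNA. All 3 groups therefore share the FLAG:DICER1 insertion, and the labels do not say whether it was expressed or whether the line was 1 clone.

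The authors' deposited table has no column names. It holds a denominator level, a first and a second numerator level, and a log2 fold change of each numerator over the denominator after 1 was added to both. None of the levels could be assigned to a knockdown or to mock from a label, so the libraries are called the first numerator, second numerator and denominator library, and the ratios the first and the second comparison. Both comparisons share the denominator library. The targeted genes stood as follows in the authors' deposited table. DICER1 had levels of 5.72 in the first numerator library and 24.0 in the second, against 15.7 in the denominator library. DROSHA had levels of 21.4 in the first numerator library and 6.72 in the second, against 23.3 in the denominator library. The DICER1 row can include reads of the transgene.

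Levels summed to 471501 in the first numerator library, 443273 in the second and 437207 in the denominator library, and read depth is unknown. Of 9 HEK293 markers, 6 had a row in the authors' deposited table (KRT8, KRT18, KRT19, VIM, CDH2 and LIN28B), with summed levels of 506 in the first numerator library, 347 in the second and 399 in the denominator library. VIM made up most of that sum, with levels of 369 in the first numerator library and 235 in the second, against 263 in the denominator library, in the authors' deposited table. The log2 fold changes of KRT8, KRT18 and KRT19 in the authors' deposited table were -0.10, -0.0057 and -0.088 in the first comparison. In the second they were -0.50, 0.0098 and -1.07 in the authors' deposited table, where CDH2 was at 0.12. PAX2, LHX1 and NEFM, and the 5 fibroblast, 5 leukocyte and 3 hepatocyte markers, had no row there, so no level was available for them. Each group has a single library, so there is no replicate error and no test, and every value below describes these libraries only. In bulk RNA a lower level can mean less RNA per cell or fewer cells that express the gene.

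Double-stranded RNA in the cytoplasm is a sign of viral infection, but cells also make their own, mostly from inverted repeats in transcripts. The enzymes ADAR and ADARB1 change adenosine to inosine in such duplexes. EIF2AK2, better known as PKR, is a kinase that is switched on by long duplexes and halts translation through eIF2. The RIG-I-like receptors bind duplex RNA and signal through MAVS, a protein of the mitochondrial outer membrane, to induce interferon. DHX9 is a helicase that unwinds RNA duplexes, ILF2 and STRBP belong to a family with the DZF domain, and STAU1 and STAU2 are human relatives of the fly protein Staufen, which transports and controls messenger RNAs. DICER1 and DROSHA themselves cut duplex RNA, and work with partners that have a double-stranded RNA binding domain.

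In both comparisons all 9 genes stayed within 2-fold. In the second, ADAR and STAU1 were each down past 1.5-fold, with levels at 58.3% and 57.5% of that in the denominator library. In the first comparison no member reached 1.5-fold in either direction. Across all 12040 genes, the share past 2-fold was 0.341% in the first and 0.831% in the second comparison. The share past 1.5-fold was 2.17% in the first and 5.07% in the second comparison, which is the background for the 0 of 9 and the 2 of 9 seen here. The median log2 fold change of the 9 was -0.069 in the first comparison, where all genes had a median of 0.030, and -0.0036 in the second, where all genes had a median of 0.0063.

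**Figure D1:**
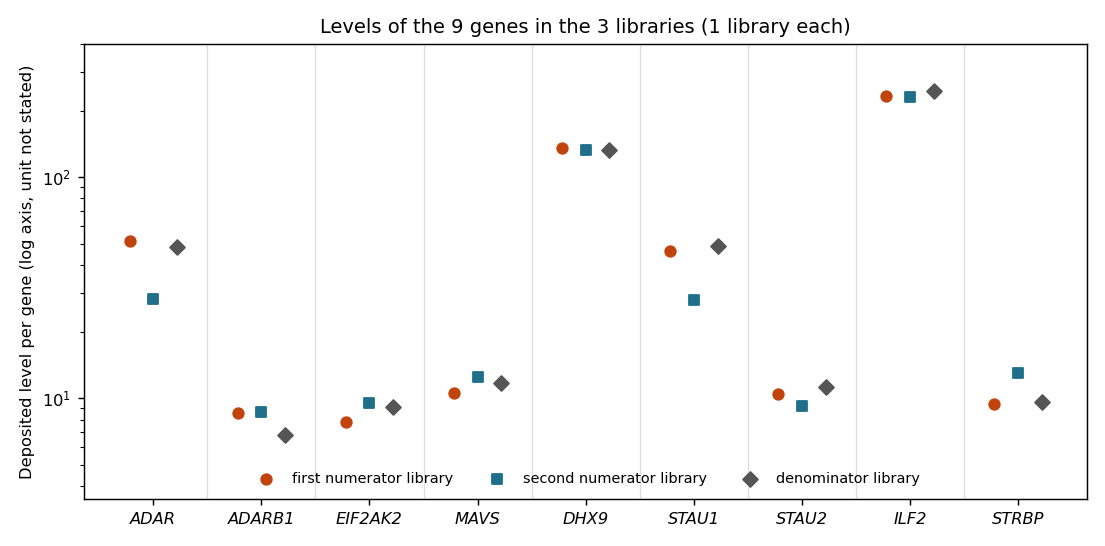
Deposited level (log axis, unit not stated) of each of the 9 genes in the first numerator, second numerator and denominator library, 1 point per library. ADAR, at 28.1, and STAU1, at 27.9, are the genes whose second numerator point lies well below the other 2.

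ADAR encodes the enzyme ADAR1, which edits duplex RNA throughout the body and has an interferon-induced and a constitutive form that this gene-level value does not separate. In the authors' deposited table its level was 51.6 in the first numerator library and 28.1 in the second, against 48.2 in the denominator library. The second numerator library was the low one, and the other 2 lay close together. The log2 fold change in the authors' deposited table was 0.10 in the first and -0.76 in the second comparison. When levels were scaled to equal totals the first of these became -0.011, so no direction is given for ADAR there. In the second comparison 1.84% of all genes were lower than ADAR.

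ADARB1, the enzyme ADAR2, edits selected sites in messenger RNAs of neurons, among them those of glutamate receptors. The authors' deposited table gave it 8.56 in the first numerator library and 8.63 in the second, against 6.79 in the denominator library. Both numerator libraries were above the denominator library, and they differed little from each other. Its log2 fold changes in the authors' deposited table were 0.29 and 0.31, and the numerator libraries differed by -0.011 (first minus second). Adding 10 in place of 1 to the levels brought these fold changes to 0.14 and 0.15. In the second comparison the 2 editing enzymes stood on opposite sides of 0, and their log2 fold changes differed by -1.06 (ADAR minus ADARB1).

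EIF2AK2 had a level of 7.79 in the first numerator library and 9.46 in the second, against 9.14 in the denominator library, in the authors' deposited table. The first numerator library was the lowest, with a log2 fold change of -0.21 in the authors' deposited table, and the second stood at 0.044. In the first comparison 12.5% of all genes were lower. Interferon induces this gene through an element in its promoter, and the promoter is shown here for that reason. The RefSeq promoter table (GRCh38.p14; 250 bases before the start and 50 after) held 1 entry for EIF2AK2, at chr2:37156931-37157230 on the minus strand, with the match to GAAA, 2 bases of any kind and GAAA again in capitals:

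EIF2AK2 promoter: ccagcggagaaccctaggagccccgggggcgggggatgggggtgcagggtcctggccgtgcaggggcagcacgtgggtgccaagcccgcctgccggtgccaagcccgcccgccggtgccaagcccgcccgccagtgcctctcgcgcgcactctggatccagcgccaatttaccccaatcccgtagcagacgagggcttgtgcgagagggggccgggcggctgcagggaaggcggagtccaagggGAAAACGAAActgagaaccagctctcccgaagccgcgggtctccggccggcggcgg

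On either strand this pattern was in 3.57% of the 35116 promoters of the same length. It was in none of the 3 ADAR entries, the 4 ADARB1 entries, the 2 STAU1 entries and the single entries of DHX9, ILF2, MAVS and STRBP. A match is a string of letters and was not tested for function.

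MAVS joins the RIG-I-like receptors to the kinases that switch on interferon genes. Its levels in the authors' deposited table were 10.6 in the first numerator library and 12.5 in the second, against 11.7 in the denominator library. The log2 fold changes were -0.13 and 0.091 in the authors' deposited table, both well inside 1.5-fold. EIF2AK2, MAVS and STRBP had the same order of libraries, first numerator lowest and second numerator highest.

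DHX9, the RNA helicase A, resolves duplexes in transcripts and takes part in transcription and splicing. It was the steadiest member, at 135 in the first numerator library and 132 in the second, against 133 in the denominator library, in the authors' deposited table. The log2 fold changes in the authors' deposited table were 0.027 and -0.0036, and the first turned to -0.0032 after re-centring on the median of all genes and to -0.081 at equal totals. ILF2, also called NF45, is a subunit of a nuclear RNA-binding complex. Levels of ILF2 in the authors' deposited table were 232 in the first numerator library and 229 in the second, against 246 in the denominator library. Both numerator libraries were slightly lower, with log2 fold changes of -0.088 and -0.10 in the authors' deposited table.

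STRBP is known from mouse testis, where it binds RNA in developing sperm cells. The authors' deposited table listed 9.38 in the first numerator library and 13.0 in the second, against 9.57 in the denominator library. Here the second numerator library was the high one. Its log2 fold changes were -0.026 and 0.40 in the authors' deposited table, and 94.9% of all genes were lower than STRBP in the second comparison.

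STAU1 binds duplexes in the 3' ends of messenger RNAs and, with UPF1, marks some of them for decay. Its levels in the authors' deposited table were 46.2 in the first numerator library and 27.9 in the second, against 48.5 in the denominator library. As for ADAR, the second numerator library stood apart from the other 2. The log2 fold changes in the authors' deposited table were -0.069 and -0.78, and 1.69% of all genes were lower in the second comparison. STAU2, the relative best known from neurons, was at 10.4 in the first numerator library and 9.21 in the second, against 11.2 in the denominator library, in the authors' deposited table. Its log2 fold changes of -0.096 and -0.26 in the authors' deposited table put both numerator libraries lower, the second more so. In the second comparison their log2 fold changes differed by -0.52 (STAU1 minus STAU2).

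**Figure D2:**
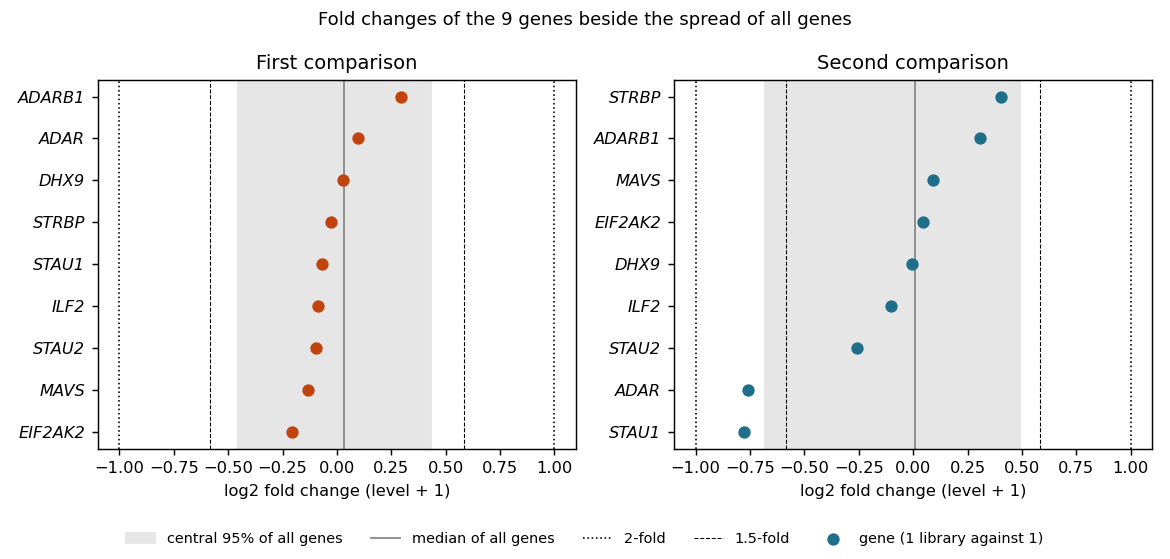
Log2 fold change (level + 1) of the 9 genes in the first (left) and second (right) comparison, 1 library against 1, over the central 95% of all genes (grey). In the first comparison all 9 lie inside that band, while ADAR at -0.76 and STAU1 at -0.78 lie below the second band's lower edge of -0.68.

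The spread of all genes gives the only yardstick in these data. The central 95% of genes ran from -0.46 to 0.43 in the first comparison and from -0.68 to 0.49 in the second. ADAR, DHX9, ILF2 and STAU1 belong to the 3010 genes with the highest denominator levels, the top of 4 equal bins. In that bin the central 95% ran from -0.72 to 0.42 in the second comparison, and 4.82% of genes were past 1.5-fold. ADAR and STAU1 were below that range too. The other members stood inside the range of their own bin in both comparisons.

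The first minus the second log2 fold change sets the numerator libraries against each other, and the denominator library cancels. It was 0.85 for ADAR and 0.71 for STAU1, the 2 members past 1.5-fold, and no member was past 2-fold. Of all genes, 9.13% were past 1.5-fold and 1.66% past 2-fold in this difference. STRBP had the lowest value, -0.43, followed by EIF2AK2 at -0.25 and MAVS at -0.22. STAU2 was at 0.16. DHX9 at 0.031 and ILF2 at 0.014 lay near 0, and both turned negative at equal totals, to -0.058 and -0.074, ILF2 also after re-centring, to -0.010. The median over the 9 genes was 0.014 and that over all genes 0.025.

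**Figure D3:**
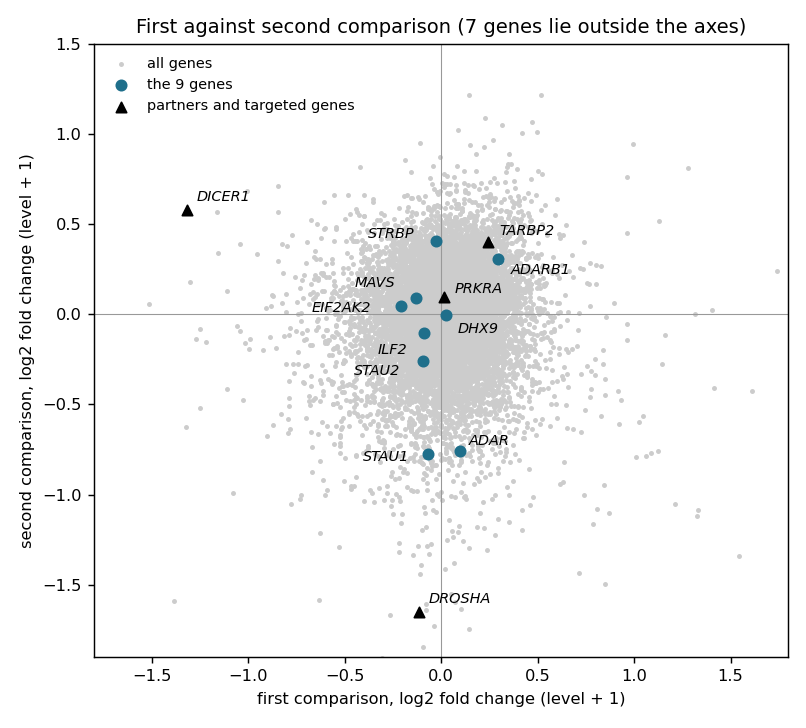
First (x) against second (y) log2 fold change (level + 1) of all genes, with the 9 genes as circles and PRKRA, TARBP2, DICER1 and DROSHA as triangles; 7 genes lie outside the axes. ADAR and STAU1 are far down at a first value near 0, away from DROSHA at -1.65.

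For STAU1 and ADAR the most similar genes were sought by distance in the 2 log2 fold changes, over 3 libraries, among genes with a denominator level within 2-fold. Nearest to STAU1, of 2170 genes, were TK1 (distance 0.0102), SNX3 (0.0375) and CCNE1 (0.0393). Nearest to ADAR, of 2191 genes, were UNK (0.0290), FSCN1 (0.0439) and MAD2L2 (0.0650). ADAR stood at rank 32 among the neighbours of STAU1. The nearest genes were picked as the smallest of many distances, so close neighbours were likely to be found. The 2 log2 fold changes share the denominator library, so they are not independent measures of likeness.

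Small RNAs act on transcripts by pairing with short strings, mostly in the 3' UTR, so the 3' UTRs of the members were read for short strings. Over 10366 genes with a GENCODE 3' UTR of at least 50 bases, the 7-mers were ranked by the mean fold change of the genes that carry them, scaled by the spread and the number of carriers. Of 16131 7-mers, AATCTAA ranked lowest in the first comparison and GTGACTT in the second. These strings were picked on the fold changes described here, ADAR and the other members included, so the next values are descriptions. In the second comparison the 1470 genes with GTGACTT had a mean of -0.14, against 0.0036 for the others, and 10.5% of carriers were down past 1.5-fold, against 2.83% of the others. The 306 genes with the longer string GTGACTTA had a mean of -0.25, and 20.6% of them were down past 1.5-fold.

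Of the 9 genes, ADAR, EIF2AK2 and MAVS carried GTGACTT in the 3' UTR used. The sites are shown as DNA, 5' to 3', with the matched string in capitals, because ADAR has the string and STAU1, with 1539 bases of 3' UTR, has none. Coordinates are GRCh38, from GENCODE release 29. The ADAR site lies at chr1:154582100-154582129, minus strand, 49 bases before the end of the annotated 3' UTR, in 9 of 11 coding transcripts. The EIF2AK2 site lies at chr2:37104836-37104865, minus strand, in 1 of 3 coding transcripts, whose 3' UTR has 8063 bases. The MAVS site lies at chr20:3869929-3869958, plus strand, in 2 of 2 coding transcripts.

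ADAR: ccttgataacaGTGACTTAacaatatacat

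EIF2AK2: cccctcctgatGTGACTTAagaattttacc

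MAVS: cgctcaaagccGTGACTTggcctactttga

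ADAR and EIF2AK2, with a string of 8 bases in common, stood at -0.76 and 0.044 in the second comparison in the authors' deposited table. For MAVS, with the shorter match, the authors' deposited table gave 0.091. The part of these strings in the members' values was not tested. Which transcript ends these cells use was not measured. TGACTTA, a string that overlaps GTGACTT and had rank 83 in the second comparison, was found 2 times in the 3' UTR of ADAR, 3 times in that of EIF2AK2 and 1 time in that of ADARB1.

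**Figure D4:**
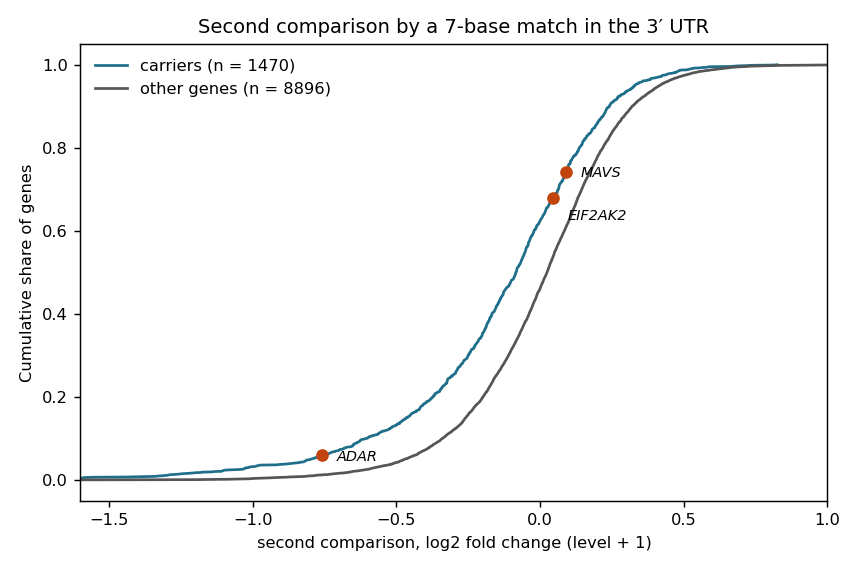
Cumulative share of genes (y) by second log2 fold change (x, level + 1) for the 1470 carriers of the 7-base string with the lowest-ranked carriers and for the 8896 other genes. The carrier curve lies to the left, with ADAR in its lower tail and EIF2AK2 and MAVS on its right.

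AATCTAA, the string of the first comparison, was in the 3' UTR of STAU1, STRBP and MAVS. Its 1220 carriers had a mean of -0.13 there, against 0.047 for other genes, and 5.16% of them were down past 1.5-fold, against 0.656% of the others. The sites are printed for the 3 members that carry them. They lie at chr20:49114156-49114185 (STAU1, minus strand), chr9:123124556-123124585 (STRBP, minus strand) and chr20:3873139-3873168 (MAVS, plus strand), in 8 of 8, 1 of 3 and 2 of 2 coding transcripts.

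STAU1: actttatcaatAATCTAAccgacaaagatc

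STRBP: aattacatcagAATCTAAagcagcaacagg

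MAVS: gttttgcagggAATCTAAgtcagtgctgtg

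In the first comparison STAU1 was at -0.069, STRBP at -0.026 and MAVS at -0.13 in the authors' deposited table. EIF2AK2 at -0.21, STAU2 at -0.096 and ILF2 at -0.088, without the string in the 3' UTR used, were between those values or lower in the authors' deposited table. ADARB1 at 0.29, ADAR at 0.10 and DHX9 at 0.027, also without it, were above all 3 carriers in the authors' deposited table. For STAU2, 3 of 13 coding transcripts had the string in their 3' UTR, but not the transcript used.

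A separate list, of proteins with a double-stranded RNA binding domain and without any of the 9, had 11 of 14 genes in the table. No gene of this group was up past 2-fold; in the first comparison DICER1 was the one down past it, and DROSHA was the one in the second. The median of the 11 was -0.0077 in the first and 0.28 in the second comparison. Partners of DICER1 and PKR stood at 0.24 and 0.40 (TARBP2, which loads small RNAs with DICER1) and at 0.013 and 0.096 (PRKRA, an activator of PKR) in the authors' deposited table. ADARB2, ADAD1 and ADAD2 had no row there.

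Upstream and downstream of MAVS, 26 of 28 listed genes were measured, MAVS among them. None was past 2-fold in the first comparison, where the median was 0.039. In the second the median was 0.10. TBKBP1, an adaptor of the kinase TBK1, alone was past 2-fold there, only just, at -1.0006 in the authors' deposited table. Of all genes, 0.831% were past 2-fold in that comparison. TBKBP1 had levels of 12.3 in the first numerator library and 4.22 in the second, against 9.44 in the denominator library, in the authors' deposited table. The highest listed gene in the second comparison was DDX58, which encodes RIG-I. For it the authors' deposited table gave 0.38, against -0.26 in the first comparison. Its levels of 0.737 in the first numerator library and 1.70 in the second, against 1.08 in the denominator library, lie near the bottom of the range in the authors' deposited table. IKBKE, a kinase of the same route, was lowest in the first comparison at -0.50 in the authors' deposited table. Levels of IKBKE were 0.871 in the first numerator library and 1.21 in the second, against 1.64 in the denominator library. They also lie near the bottom of the range in the authors' deposited table. Of 9 genes of the TLR3 pathway, 8 were measured and none was past 1.5-fold in either comparison. Their medians were 0.019 and 0.034, and RIPK1 was lowest in the first comparison at -0.44 in the authors' deposited table.

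Around PKR, all 18 listed regulators, eIF2 kinases and subunits of eIF2 and eIF2B were measured. None was past 1.5-fold in either comparison. The medians were -0.017 in the first and 0.095 in the second. Regulatory subunits of the eIF2 phosphatase stood on opposite sides of 0 in the first comparison, with PPP1R15A at 0.46 and PPP1R15B at -0.50 in the authors' deposited table. EIF2AK3, the kinase PERK of the endoplasmic reticulum, was lowest in the second at -0.37 in the authors' deposited table.

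Helicases that bind or sense duplex RNA had 12 of 14 genes measured, DHX9 included, with medians of -0.051 and 0.17. None was past 2-fold in either comparison. ZNFX1, a sensor of viral RNA at mitochondria, was past 1.5-fold upward in the second comparison, at 0.65. DDX17 was lowest there at -0.55 in the authors' deposited table. For ZNFX1 the authors' deposited table gave levels of 4.03 in the first numerator library, 5.63 in the second and 3.23 in the denominator library. Of 16 measured factors and targets of Staufen-mediated decay, including STAU1 and STAU2, none was past 2-fold in either comparison. DCP2 and DCP1A, which help remove the cap of messenger RNAs, were past 1.5-fold downward in the second comparison, as was STAU1. The authors' deposited table gave -0.75 for DCP2 and -0.63 for DCP1A there. These were 3 of the 16, beside 464 of all 12040 genes down past 1.5-fold in that comparison. The 3' UTR of DCP2 held GTGACTT 2 times and that of DCP1A 1 time, while that of STAU1 had none. The part of the string in these values was not tested. The medians of this list were 0.036 and -0.091.

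Transcripts known to be edited by ADAR enzymes had 16 of 23 listed genes measured, and none was past 1.5-fold in the first or the second comparison. The median was 0.11 in the first and -0.12 in the second comparison, beside 0.030 and 0.0063 for all genes. AZIN1, which is recoded by ADAR, was lowest in the second at -0.58, and BLCAP highest at 0.54 in the authors' deposited table. In the difference between the comparisons AZIN1 alone of the 16 was past 1.5-fold, at 0.62, beside 9.13% of all genes. The 3' UTR of AZIN1 held GTGACTT 2 times, and no link of its values to ADAR or to the string was tested. Editing itself was not measured. Of 45 interferon-induced genes, 29 were measured, ADAR and EIF2AK2 among them. In the first comparison none was past 2-fold. IFI35 alone was past it in the second, at 1.07 in the authors' deposited table, beside 0.831% of all genes. Its levels of 1.89 in the first numerator library and 3.37 in the second, against 1.09 in the denominator library, also lie near the bottom of the range in the authors' deposited table. ADAR was the lowest of the 29 in the second comparison and IFIT1 the lowest in the first, at -0.52 in the authors' deposited table. The medians of the 29 were -0.037 and -0.045.

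**Figure D5:**
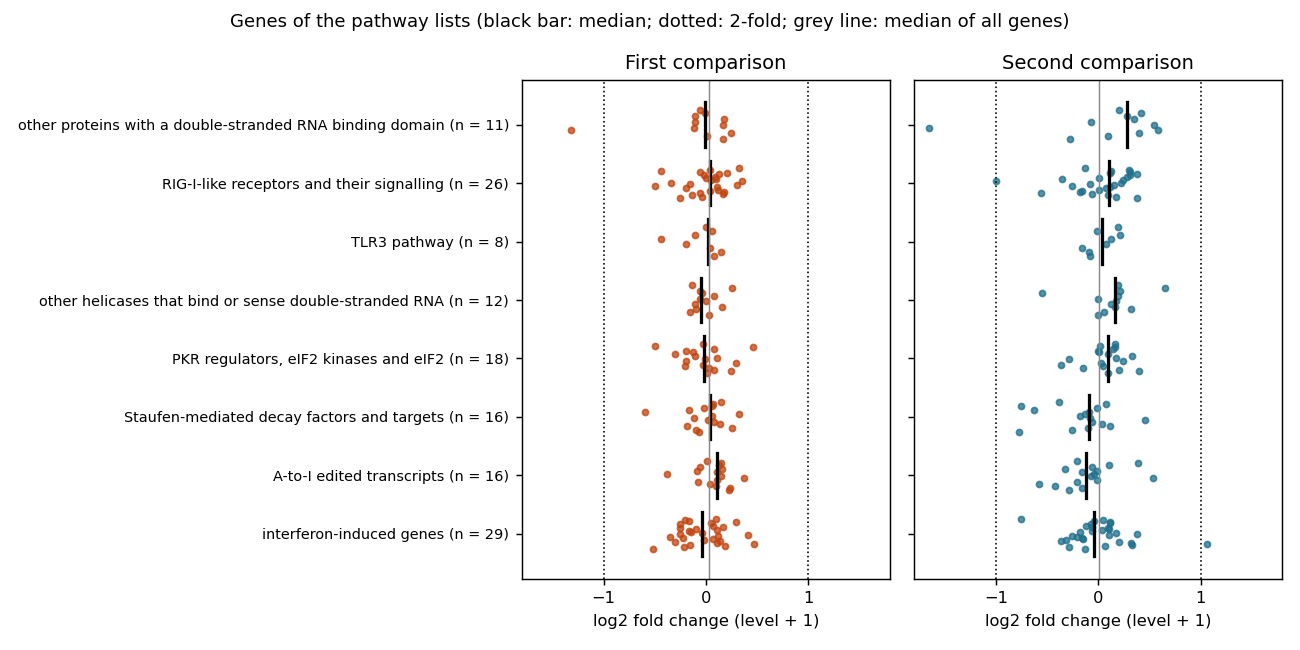
Log2 fold change (level + 1) of each measured gene of 8 lists in the first (left) and second (right) comparison, 1 point per gene, with the list median as a black bar and 2-fold as dotted lines. Few points pass 2-fold, among them DICER1 at -1.32 on the left and DROSHA at -1.65 on the right, and genes can be in more than 1 list.

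Some rows can hold reads of neighbours, since the labels do not say whether counting used strand. By GENCODE release 29, exons of ILF2 share 43 bases with SNAPIN, those of EIF2AK2 share 35 bases with GPATCH11 and 401 bases with a processed pseudogene, and those of ADARB1 share 51 bases with SSR4P1, each on the opposite strand. STAU2 shares 302 bases and STRBP 254 bases with genes on their own strand. DHX9 has 1 named pseudogene and ILF2 has 2, so a part of their reads may be split or shared. No overlap of this kind was found for ADAR, STAU1, DHX9 or MAVS.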

How the data were processed

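Poly(A) RNA of 3 HEK293 libraries was measured, 1 per group. The authors' deposited table gives each gene 3 levels of unstated unit, treated here as a score, and 2 log2 fold changes, for 12040 symbols. Per the submitters' processing notes, the genome build was hg19 and the tools included SAMtools, Cuffdiff 2.1.1, Cufflinks, TopHat2 2.06 and CASAVA 1.8.2, with roles not stated. The deposited log2 fold changes were recomputed as ratios of levels plus 1, with a largest deviation of 5e-12. Adding 1 shrinks the fold changes of low genes, and depth is unknown, so no counting interval could be given. Levels are compared within a gene only. Every row had a denominator level of at least 1.00, so genes lower than that in the denominator library are not covered.

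Members, gene lists and tests were chosen with earlier results of these data known. Named were the 9 members, DICER1, DROSHA, PRKRA and TARBP2, the highest and lowest gene and those past 2-fold of each list, and 3 genes most like each of STAU1 and ADAR. Some genes that this rule names, and 2 of the 10 lists, are not reported here. From their lists, genes past 1.5-fold were named after their values were seen. Because 1 library per group allows no test, genes past 2-fold (or 1.5-fold, where stated) were counted beside the share of all genes. GENCODE release 29 (GRCh38) gave 3' UTRs from the longest principal coding transcript, and RefSeq the promoters, which held 8 of the 9 members. Python 3.11.15, numpy 2.4.6, pandas 2.3.3 and matplotlib 3.10.9 were used.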

Additional observations from a re-analysis of the deposited data

How the results depend on the processing

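No paired analysis was possible because each group has 1 library. No member was past 2-fold under any alternative: adding 0.1 or 10 to the levels, re-centring on the median of all genes, scaling to equal totals (added after seeing the data) or keeping genes with every level at least 5. At 1.5-fold, with 1 added to the levels, the count was 0 in the first comparison, 2 in the second and 2 in the difference between the comparisons. Adding 10 brought STAU1 in the difference to 0.57, below the 1.5-fold line of 0.585. The members' median in the second comparison was -0.0036 and their mean -0.12. Scaling to equal totals took the members' median in the first comparison to -0.18 and shifted the median of all genes there by -0.095. Without replicates, a value was taken as moved when it changed by at least 0.1. Adding 10 moved 11 of 27 single values, with ADAR at -0.61 and STAU1 at -0.63 in the second comparison, and no sign turned; equal totals moved 4 and turned 4 signs, and re-centring moved 0 and turned 2. Unknown depth leaves counting error unmeasured.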
